A study of Mus musculus with 16 samples.

Results

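Most of the genes described here encode proteins that dock, prime and fuse vesicles with a target membrane. A few encode other vesicle proteins, such as Snap91, an adaptor of clathrin-coated vesicle recycling. The genes were taken from a comparison of mouse embryonic stem cells without the transcriptional repressor REST and control cells that carry it. They were chosen by symbol: all probes of the array annotated to a numbered synaptotagmin (Syt), syntaxin (Stx), syntaxin-binding protein (Stxbp), vesicle-associated membrane protein (Vamp) or complexin (Cplx), to Sv2a, Sv2b or Sv2c, to a synapsin (Syn1 to Syn3), to synaptophysin (Syp), to a Rab3 or to Snap23, Snap25, Snap29, Snap47 or Snap91. This gave 87 probes for 61 genes, of 25697 probes and 16593 genes in all. From general knowledge of where they are used, 29 of these genes were put in a neuronal class, 20 in a ubiquitous class and 12 in a class of others, restricted to tissues outside neurons or mixed.

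Membrane fusion is driven by SNARE proteins, in which a Vamp on the vesicle and a syntaxin and a Snap protein on the target membrane zip together into a helical bundle. Most cells use one set of paralogues for general traffic, while neurons add a set for the fast, calcium-triggered release of transmitter, with synaptotagmins as calcium sensors, complexins as clamps of the assembled bundle, synapsins as tethers of the vesicle pool and Rab3 proteins as docking GTPases. REST binds a DNA element, RE1, near many neuronal genes and represses them outside the nervous system.

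The 16 arrays held 2 for each of 8 groups: knockout cells (REST -/-) at days 0, 3, 6 and 9 and control cells (REST +/+) at days 0, 3, 6 and 9. Per the labels' protocols, day 0 cells of both genotypes grew without feeders on gelatin in serum medium with leukemia inhibitory factor, and the later samples were embryoid bodies, aggregates made in hanging drops without that factor and then kept in suspension. The study asked how loss of REST changes early differentiation, and its title points to the cardiac lineage. Each genotype stands for a single line as far as the labels say, and other differences between these lines and the loss of REST cannot be told apart. The labels do not state separate cultures for the 2 arrays of a group, and the p-values therefore cover only the spread between arrays, which may be technical.

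Between 7688 and 9045 probes were detected on the knockout arrays and between 6300 and 8930 on the control arrays, and the correlation across genes between the 2 arrays of a group was 0.989 to 0.991 in knockout and 0.982 to 0.992 in control groups. The single probe of Rest was not detected on any of the 16 arrays (intensity of at most 44.0, on a control array), so it could not check the labels. The lowest intensity of an array lay between -148 and -97.9 in knockout and between -88.6 and -72.1 in control arrays. The part of this offset in the results was not tested, and the 14361 probes never detected differed by a median of 0.880, 0.999, -0.184 and -0.632 intensity units at days 0, 3, 6 and 9 (knockout minus control). All 8 pluripotency markers, Pou5f1, Nanog and Sox2 among them, were detected on both day 0 arrays of each genotype. Since the samples were bulk RNA, more cells of a type and more RNA per cell cannot be told apart.

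Of the 61 genes, 32 were detected well enough to be tested, namely 12 of the 29 neuronal, 17 of the 20 ubiquitous and 3 of the 12 other genes. A gene was tested where a probe had a detection p-value below 0.01 on both arrays of at least 1 group. The remaining 29 included Snap25, the neuronal SNARE on the plasma membrane, and Syt1, the main calcium sensor of fast release. Of these, 28 were not detected on any array, and Stx17 was detected on 1 array with an intensity of at most 86.0. The 17 neuronal genes left out reached at most 68.4, the value of Vamp1 on a knockout array. Snap25 read between -6.33 and 22.2 on knockout arrays and between -34.3 and -0.111 on control arrays, all below detection. With no filter Snap25 differed by 0.27 ± 0.07 on average over the days (adjusted p = 0.0338), between values that were not detected in either genotype, and by 0.20 to 0.38 on single days, none called. The same fit called Stx17, an autophagosome syntaxin of the ubiquitous class, with -0.80 at day 3 (adjusted p = 0.00221) and Vamp1 with 0.65 at day 3 (0.0282), also at intensities near or below detection. Among the neuronal genes tested, Cplx1, Snap91, Syn1, Syt4 and Syt9, passed only through knockout arrays and so had to lean towards a rise. No member passed through control arrays only.

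Where both genotypes were compared on the same day, between 4 and 6 of the 12 neuronal genes tested rose in the knockout, and 0 to 2 of the 17 ubiquitous genes were called. The classes were not tested against each other. At day 0, 4 of the 12 neuronal genes tested rose and none fell, against 1.41% of all 7505 genes that rose (limma, Benjamini-Hochberg adjusted p below 0.05 over all genes). The 4 were Syt4, Syp, Stx1a and Cplx1. At day 3, 6 rose, with Syn1 and Sv2a added, against 3.94% of all genes. At day 6, 5 rose, namely Syt4, Syp, Stx1a, Syn1 and Cplx1, against 1.43%. At day 9, 6 rose, the same 5 and Sv2a, against 2.69%. No neuronal gene fell on any day, against 0.773%, 2.85%, 0.32% and 2.43% of all genes that fell at days 0, 3, 6 and 9. Over the 7 neuronal genes that passed through a control group, 2, 3, 2 and 3 rose at days 0, 3, 6 and 9.

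The median log2 fold change of the 12 neuronal genes was 0.39, 0.47, 0.25 and 0.54 at days 0, 3, 6 and 9, or 0.30, 0.42, 0.23 and 0.39 with genes undetected in control arrays set to their lower bound. Over the 7 neuronal genes that passed through a control group it was 0.24, 0.07, 0.19 and 0.41. The median of the 17 ubiquitous genes was -0.08, 0.05, -0.03 and -0.02, or 0, 0.04, -0.02 and -0.02 with undetected genes treated in the same way. That of all genes lay within 0.01 of 0 on each day. None of the ubiquitous genes was called by limma at days 0, 6 or 9 (1, 1 and 2 of 17 had an unadjusted p below 0.05), where 2.19%, 1.75% and 5.12% of all genes were called in either direction. At day 0, 6 of the 17 ubiquitous genes were not detected in control, so for them the comparison was with values below detection. At day 3 Snap47 rose and Vamp3 fell (4 of 17 had an unadjusted p below 0.05), and 6.8% of all genes were called. Of the 12 neuronal genes, 7, 6, 5 and 9 had an unadjusted p below 0.05 at days 0, 3, 6 and 9. Averaged over the days, 7 neuronal genes rose, 3 of them among the 7 that passed through a control group, against 5.17% of all genes, and 1 ubiquitous gene, Stx16, fell, against 5.08% of all genes that fell. Stx16, a syntaxin of the trans-Golgi network, fell by 0.29 ± 0.08 (adjusted p = 0.0340), a call lost in 12 of 24 other settings, 10 of them without a single array (adjusted p 0.0516 to 0.0882). The probes of Stx8, also ubiquitous, disagreed on average over the days in a limma fit by probe. A dimmer probe was called higher (0.40 ± 0.12, adjusted p = 0.0399), and the probe used (0.18 ± 0.13) and another (0.21 ± 0.13) were not called.

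**Figure D1:**
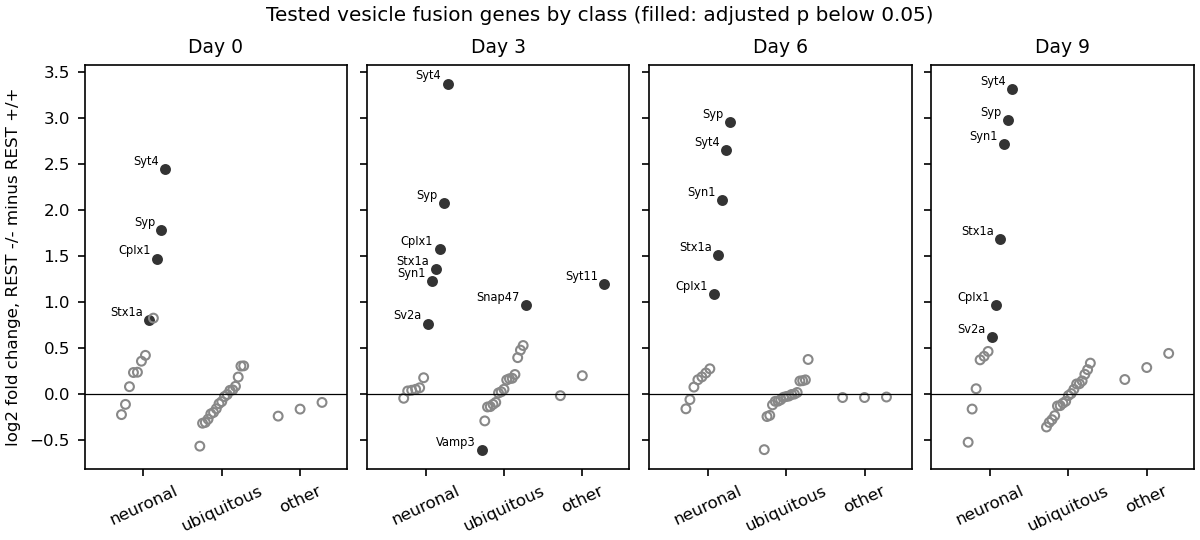
Each point is the log2 fold change of 1 tested gene, REST -/- minus REST +/+, in a panel for each day, with genes in columns for the neuronal (12), ubiquitous (17) and other (3) class and filled points for an adjusted p below 0.05. The filled points of the neuronal column all lie above 0, with Syp at 2.07 at day 3 and 2.97 at day 9, while the ubiquitous column holds filled points at day 3 only; points of genes not detected in REST +/+, such as Syt4 from day 3 on, were fitted against background.

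Syp encodes synaptophysin, a membrane protein of synaptic vesicles. Its intensity was 1629 and 1696 on the knockout arrays of day 0 against 319 and 516 on the control arrays, and 1835 and 2213 against 354 and 380 at day 3. At day 6 it was 2111 and 1944 in knockout against 257 and 248 in control embryoid bodies, and at day 9 it was 3536 and 2866 in knockout against 356 and 434 in control. Each knockout array lay above all 8 control arrays. The log2 fold change on day 0 was 1.78 ± 0.17 (SE, 2 arrays per group, adjusted p = 1.40e-05), followed by 2.07 ± 0.17 (2.42e-06) on day 3, 2.95 ± 0.17 (2.58e-08) on day 6 and 2.97 ± 0.17 (1.31e-08) on day 9.

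Syt4 encodes a synaptotagmin of dense-core and synaptic vesicles whose first C2 domain does not bind calcium in the usual way. Its intensity at day 0 was 956 and 838 in knockout cells and 133 and 141 in control cells. In embryoid bodies it was 504 and 659 in knockout against 25.4 and 1.62 in control at day 3, 289 and 297 against -4.36 and -12.4 at day 6, and 539 and 530 against 27.6 and -11.9 at day 9. Control embryoid bodies were thus below detection from day 3 on, and the knockout arrays of every day lay above all control arrays. At day 0, where 1 control array detected it, Syt4 rose by 2.44 ± 0.16 on the log2 scale (adjusted p = 2.93e-07), and the adjusted p was 6.03e-09, 4.24e-08 and 1.77e-09 at days 3, 6 and 9.

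Syn1 encodes synapsin I, which ties synaptic vesicles to each other and to actin. Its intensity in knockout against control was 182 and 139 against 94.0 and 54.0 at day 0, and 206 and 194 against 47.6 and 74.0 at day 3. It was 354 and 361 in knockout against 58.6 and 65.7 in control at day 6, and 487 and 433 against 32.3 and 52.6 at day 9. Each knockout array lay above all 8 control arrays. At day 0 the difference of 0.82 ± 0.21 was not called (adjusted p = 0.0555), at day 3 Syn1 rose by 1.22 ± 0.21 (0.00171), and the knockout level was a minimum of 3.54-fold above control on day 6 (adjusted p = 1.14e-05) and 4.61-fold on day 9 (adjusted p = 3.48e-07). Without control day 0 replicate 1 the day 0 difference was called (1.18, adjusted p = 0.00659). A second, dimmer probe of Syn1 gave 0.57 and 0.48 at days 0 and 3, neither called, and 1.39 and 2.19 at days 6 and 9, both called. Of its relatives, Syn2 was bright on all arrays and not called on any day, and Syn3 was not detected.

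Promoters of Syn1 and Syp are shown because both genes rose and the RE1 element can be looked for in them. RefSeq gave a promoter window, 250 bases before to 50 bases after the start (GRCm38.p6), for 49 of the 61 genes. RE1 was searched on both strands as TTCAGCACC, any 2 bases, then GGACAGCGC, with at most 4 mismatches among these 18 letters. Such a match lay in 158 of 32851 windows, which is 0.481%. Of the genes described here 3 had one, Syn1, Stxbp5l and Syt6, all of the neuronal class (3 of 21 with a window, against 0 of 18 ubiquitous and 0 of 10 other genes). Syn1 had 2 mismatches, A14T and C18A, counted from 1 at the first letter of the element with the element's base given first, and its match lay 232 to 213 bases before the start at chrX:20921131-20921150. Stxbp5l and Syt6 had 4 mismatches each; Stxbp5l, a tomosyn that holds syntaxins, was not called on any day and Syt6 was not detected. The match within the sequences is in capitals, and the window of Syp held none. A match is a description of letters, not of binding.
Syn1, chrX:20920869-20921168, minus strand: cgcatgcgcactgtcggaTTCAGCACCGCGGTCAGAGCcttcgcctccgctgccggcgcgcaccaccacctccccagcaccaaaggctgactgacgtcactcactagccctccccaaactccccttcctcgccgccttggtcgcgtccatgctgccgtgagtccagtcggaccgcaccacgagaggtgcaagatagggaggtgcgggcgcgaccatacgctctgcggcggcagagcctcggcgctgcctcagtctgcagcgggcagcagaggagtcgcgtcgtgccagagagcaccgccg
Syp, chrX:7638330-7638629, plus strand: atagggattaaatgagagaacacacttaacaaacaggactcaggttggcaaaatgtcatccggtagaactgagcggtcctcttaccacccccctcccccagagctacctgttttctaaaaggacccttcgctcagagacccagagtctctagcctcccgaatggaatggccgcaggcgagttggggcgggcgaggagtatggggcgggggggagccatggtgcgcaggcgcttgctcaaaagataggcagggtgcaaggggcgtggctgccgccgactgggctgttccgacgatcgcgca

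Stx1a encodes syntaxin 1A, the neuronal SNARE on the plasma membrane. Its intensity was 322 and 305 on knockout against 152 and 155 on control arrays at day 0, and 230 and 251 against 58.9 and 74.2 at day 3. At day 6 it was 397 and 398 in knockout against 120 and 134 in control, and at day 9 it was 527 and 471 against 139 and 141. Every knockout array lay above all 8 control arrays. The log2 rise of Stx1a was 0.80 ± 0.12 on day 0 (adjusted p = 0.00233), 1.36 ± 0.12 on day 3 (6.72e-06), 1.51 ± 0.12 on day 6 (1.60e-06) and 1.68 ± 0.12 on day 9 (2.47e-07).

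Cplx1 encodes complexin 1, which binds the assembled SNARE bundle. It was detected on all 8 knockout arrays and on none of the 8 control arrays. Its intensity was 201 and 159 in knockout against 43.2 and 43.0 in control at day 0, 213 and 160 against 49.4 and 11.9 at day 3, 117 and 133 against 37.9 and 21.0 at day 6, and 116 and 107 against 21.1 and 32.7 at day 9. Knockout was at least 1.31-fold (adjusted p = 0.00117), 1.72-fold (2.04e-04), 1.33-fold (0.0110) and 1.21-fold (0.0134) higher on these days. The p-values belong to the fitted differences, and the bounds themselves were not tested. The day 6 call was lost without control day 6 replicate 2 (0.98, adjusted p = 0.0566), without knockout day 6 replicate 1 (1.16, 0.0539) or replicate 2 (0.99, 0.124). The day 9 call was lost without any one of the 4 day 9 arrays (0.91 to 1.04, adjusted p 0.0557 to 0.118).

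Sv2a, a membrane protein of synaptic vesicles and the binding site of the drug levetiracetam, read 177 and 223 on knockout against 120 and 155 on control arrays at day 0 and 153 and 173 against 61.0 and 82.7 at day 3. It read 201 and 188 in knockout against 168 and 140 in control at day 6 and 222 and 187 against 116 and 126 at day 9. The groups did not overlap on any day, but Sv2a rose only at day 3 (0.76 ± 0.15, adjusted p = 0.00618) and day 9 (0.62 ± 0.15, adjusted p = 0.0306). Without control day 3 replicate 1 the day 3 value was 0.64 (adjusted p = 0.106), without knockout day 3 replicate 2 it was 0.78 (0.0509), and without any one of the day 9 arrays the day 9 value was 0.59 to 0.65 (adjusted p 0.110 to 0.194). The other probe of Sv2a gave 0.58, 0.53, 0.35 and 0.73 at days 0, 3, 6 and 9, none of them called. On average over the days it was called in a limma fit by probe (0.55 ± 0.11, adjusted p = 0.00484), as was the probe used (0.50 ± 0.08, adjusted p = 7.36e-04).

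**Figure D2:**
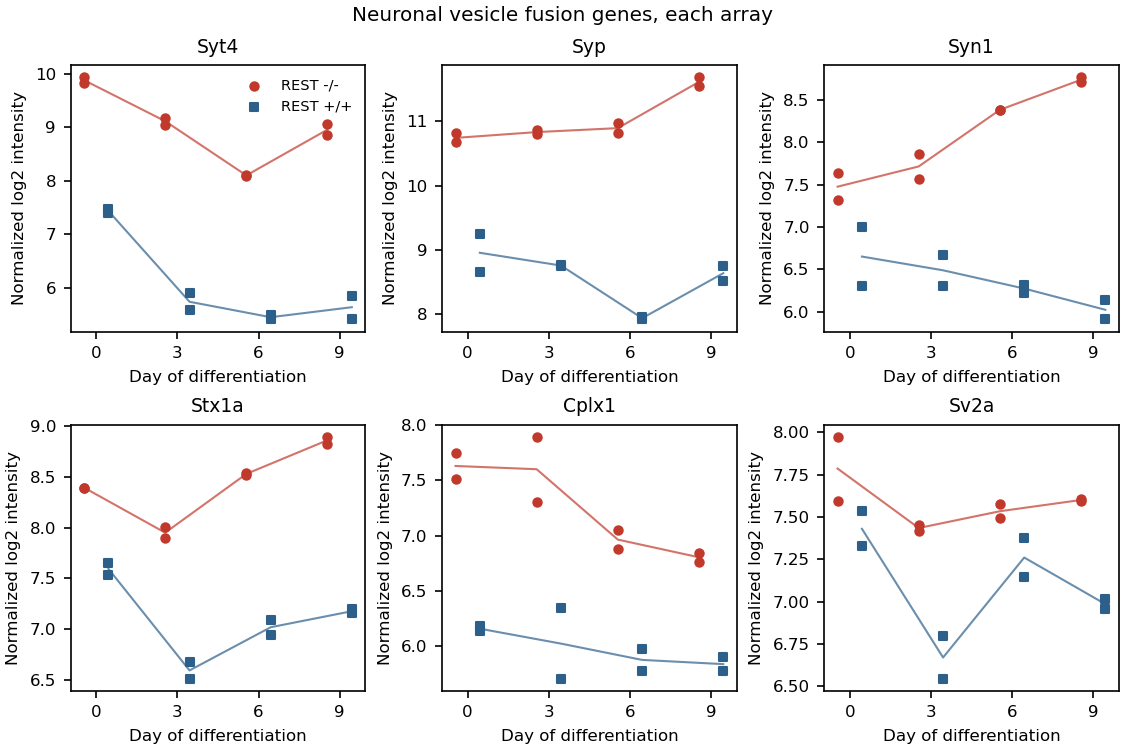
Normalized log2 intensity on each array against the day of differentiation for the neuronal genes called on at least 1 day, with REST -/- and REST +/+ as separate symbols. REST -/- arrays of Syp, Syn1 and Stx1a lie above the REST +/+ arrays on every day, and those of Syp and Stx1a move apart from day 0 (1.78 and 0.80) to day 9 (2.97 and 1.68).

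The other neuronal genes tested were not called on any day. Vamp2, the vesicle SNARE of neurons, was bright in both genotypes: 2181 and 1889 in knockout against 1566 and 1357 in control at day 0, and 6375 and 6000 against 4231 and 4689 at day 9. Its knockout minus control difference was 0.24, -0.05, 0.19 and 0.37 at days 0, 3, 6 and 9. Rab3a, the main Rab3 of synaptic vesicles, was not detected at days 0 and 3 and differed by -0.06 and 0.41 at days 6 and 9. Snap91, an adaptor of clathrin-coated vesicle recycling, was called on average only (0.29 ± 0.08, adjusted p = 0.0252), and that call was lost in 11 of 23 other settings, among them without control replicate 1 of day 3, 6 or 9, knockout day 0 replicate 1 or 2, or knockout day 3 replicate 1, day 6 replicate 2 or day 9 replicate 2 (0.23 to 0.29, adjusted p 0.0500 to 0.0722). Rab3d, of the other class, was detected at day 9 only and differed there by 0.44.

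Among the ubiquitous genes, Snap47, a SNARE of internal membranes, read 79.1 and 131 in knockout against 19.2 and 30.1 in control at day 3. Its fitted difference was called higher there (limma, adjusted p = 0.0110). Knockout was at least 1.03-fold higher, a bound close to 1 since Snap47 was not detected in control, and the bound itself was not tested. At day 0 it read 37.6 and 28.5 in knockout against 44.2 and 89.3 in control (not called, adjusted p = 0.223). Without control day 3 replicate 1 its day 3 call was lost (adjusted p = 0.117), as without knockout day 3 replicate 2 (0.151). Vamp3, cellubrevin of recycling endosomes, read 1312 and 1318 in knockout against 1767 and 1751 in control at day 3 and fell by 0.61 ± 0.16 (adjusted p = 0.0348). Its call was lost without any one of the 4 day 3 arrays (adjusted p 0.0683 to 0.265), and its other probe gave -0.29 (adjusted p = 0.508). Syt11, outside both classes and a synaptotagmin that does not bind calcium, read 137 and 233 in knockout against 34.8 and 74.9 in control at day 3 and rose by 1.19 ± 0.22 (adjusted p = 0.00341), lost without control day 3 replicate 1 (0.0755) or knockout day 3 replicate 2 (0.0717).

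Pairs of close paralogues were compared within arrays, which asks whether a neuronal gene changed by another amount than a close relative outside the neuronal class. Of 8 listed pairs, 3 had both genes tested, 2 with a ubiquitous relative and 1, Rab3a with Rab3d, with a relative of the other class. Snap25 with its paralogue Snap23, the plasma membrane SNARE of most cells, was not among them, and Snap23 differed by 0.04, -0.14, -0.03 and -0.02 at days 0, 3, 6 and 9. The difference Stx1a minus Stx4a was higher in knockout than in control by 1.30 on the log2 scale on average, by 0.49, 1.20, 1.59 and 1.92 at days 0, 3, 6 and 9 (exact permutation test, 2-sided, 1296 relabellings within days, p = 0.00309, adjusted p over the 3 pairs = 0.00925). Stx4a, a syntaxin of the plasma membrane in most cells, differed by 0.31, 0.15, -0.08 and -0.24 at these days and read 86.2 and 21.5 in knockout against 16.8 and 38.9 in control at day 0 and 213 and 173 against 230 and 193 at day 9. It was not detected on any day 0 array and on 1 array of each genotype at day 3, so the pair rests on a relative above background at days 6 and 9 only. Vamp2 minus Vamp3 was higher by 0.41 on average, by 0.55, 0.56, 0.27 and 0.26 at days 0, 3, 6 and 9 (exact permutation p = 0.00617, adjusted p = 0.00925). Neither Vamp2 nor, apart from day 3, Vamp3 was called by itself. Rab3a minus Rab3d differed by 0.06 on average (exact permutation p = 0.637), with -0.03 at day 9, the one day on which both genes were detected. The smallest p this test can give is 0.00154. A ratio within an array shows unequal change of 2 genes, not which of them changed.

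**Figure D3:**
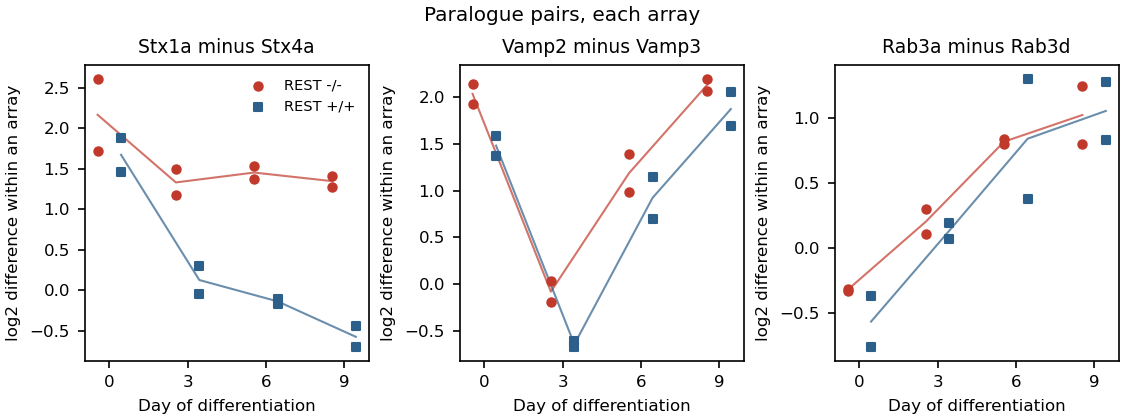
Log2 difference between a neuronal gene and its relative (ubiquitous for Stx1a and Vamp2, of the other class for Rab3a) within each array, against the day, with REST -/- and REST +/+ as separate symbols. For Stx1a minus Stx4a, REST -/- lies 1.59 above REST +/+ at day 6 and 1.92 at day 9, the days on which Stx4a was detected on all arrays, while Rab3a minus Rab3d differs by -0.03 at day 9.

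Within each genotype many vesicle genes changed with differentiation, as did many of all genes. At day 3, 8 of the 32 genes rose and 6 fell in knockout (24.6% and 21.6% of all genes), and 8 rose and 7 fell in control (27.2% and 24.4%). These day 3 counts were close to the shares of all genes. At day 6, 14 rose and 7 fell in knockout (31.7% and 29.9%), and 12 rose and 7 fell in control (32.4% and 30.6%). The falls at day 6 were a smaller share than among all genes. Rab3d was among the genes that fell at days 3 and 6 in both genotypes. It was detected at day 9 only, so these falls were fitted between values below detection. By day 9, 22 of the 32 genes rose and 5 fell in knockout (35.4% and 34.2% of all genes), and 18 rose and 7 fell in control (35.2% and 34%). The ubiquitous class rose in both genotypes, 13 of 17 in knockout and 14 of 17 in control, with 1 falling in each, Stx3. Stx5a, a Golgi syntaxin, rose by 1.75 ± 0.13 in knockout (adjusted p = 2.73e-08) and 1.74 ± 0.13 in control (2.91e-08). Vamp8, an endosomal SNARE outside both classes, was not detected at day 0 and reached at least 3.97-fold its day 0 level in knockout (1.58e-08) and at least 2.81-fold in control (7.99e-08). Rab3a likewise reached at least 2.71-fold in knockout (3.50e-07) and at least 1.61-fold in control (1.95e-06). Vamp2, detected throughout, rose by 1.61 ± 0.16 in knockout (4.01e-07) and 1.48 ± 0.16 in control (1.04e-06).

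Of the 12 neuronal genes, 6 rose and 4 fell in knockout by day 9, against 35.4% and 34.2% of all genes. In control 3 rose and 6 fell, against 35.2% and 34% of all genes. Syn1 rose by 1.26 ± 0.21 in knockout (adjusted p = 7.05e-05) and was at least 1.09-fold lower at day 9 than at day 0 in control (0.0143), where it was detected on 1 day 0 array and on no day 9 array, and Stx1a rose by 0.47 ± 0.12 (0.00378) in knockout and fell by 0.42 ± 0.12 (0.00799) in control. Because Syn1 passed the filter through knockout arrays only, the size of its difference in change was fitted against background and is not a measured one. Syn2, Syt9 and Syt4 fell in both. The difference between the genotypes in the change to day 9 was called for Syn1 (1.89 ± 0.29, adjusted p = 0.00152), Syp (1.19 ± 0.24, 0.0150) and Stx1a (0.88 ± 0.18, 0.0127), against 1.2% of all genes. The same difference to day 3 was called for Snap47 (1.53 ± 0.30, 0.0145), Syt11 (1.28 ± 0.31, 0.0425) and Syt4 (0.93 ± 0.23, 0.0426), against 1.28%, and to day 6 for Syp (1.17 ± 0.24, 0.0326), against 0.853%. The call of Syn1 held in all 24 other settings, and each of the others was lost without at least 1 single array, with adjusted p of up to 0.0829 for Syp and 0.0593 for Stx1a to day 9, 0.151 for Syp to day 6, and 0.0759 for Snap47, 0.209 for Syt11 and 0.175 for Syt4 to day 3.

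**Figure D4:**
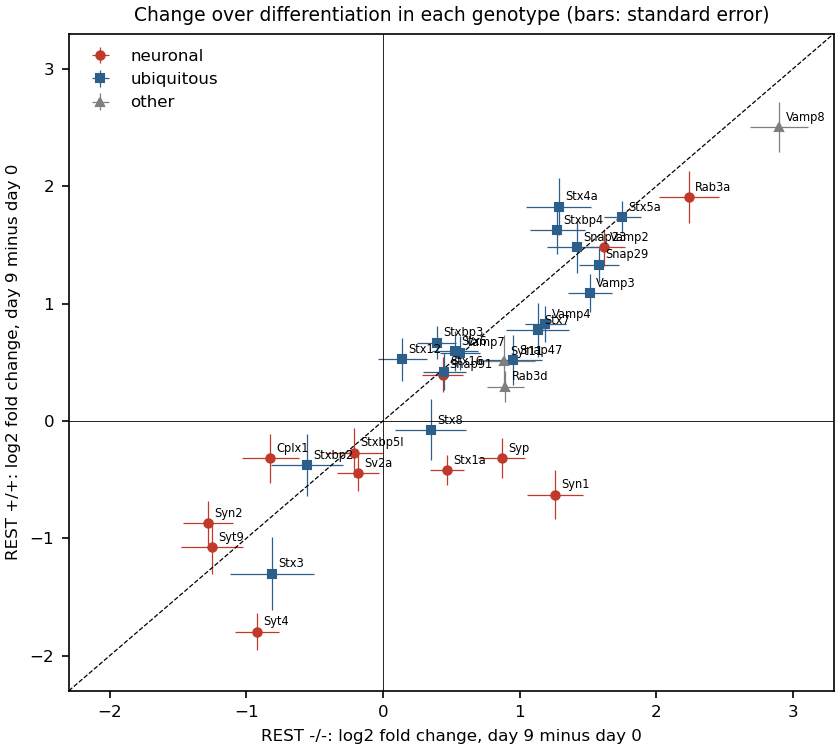
Log2 fold change from day 0 to day 9 in REST -/- on the x axis against that in REST +/+ on the y axis, 1 point a gene with its standard error, by class. Stx1a lies at 0.47 on the x axis and -0.42 on the y axis, while Stx5a (1.75 and 1.74) and Vamp2 (1.61 and 1.48) lie at similar values on both axes; points of genes undetected in a group, such as Syn1 in REST +/+ at day 9, are fitted values.

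Of a list of 68 other secretion genes 27 were tested, and 1, 1, 4 and 5 rose in knockout at days 0, 3, 6 and 9 and none fell. These were Rims2 at day 0, Rims3 at day 3, both with Cadps and Slc32a1 at day 6, and the same with Nsf at day 9, against 1.41%, 3.94%, 1.43% and 2.69% of all genes that rose, so that the 1 of 27 at day 3 was no more than the share of all genes. Rims2 and Rims3 are proteins of the release site, Cadps primes dense-core vesicles, and Slc32a1 loads GABA into vesicles. Knockout levels of Cadps were at least 2.88-fold those of control on day 6 (adjusted p = 3.23e-05) and at least 3.52-fold on day 9 (2.25e-07). Nsf is the ATPase that takes SNARE bundles apart. The median of the 27 was 0.03, -0.05, 0.02 and 0.11 at days 0, 3, 6 and 9.

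Markers of several cell types differed between the genotypes on the same arrays. Of 11 neuron markers on the array, 4 to 5 were detected on both arrays of a knockout group and 2 to 3 in control, with summed intensities of 2012 to 2686 on knockout arrays and 686 to 1323 on control arrays. Of the 7 tested, 2, 4, 2 and 4 rose at days 0, 3, 6 and 9, against 1.41%, 3.94%, 1.43% and 2.69% of all genes. The 4 of day 3 included Elavl3 (0.72, limma adjusted p = 0.0159), which was not detected on any array of that day. Elavl3 passed the filter through the knockout arrays of day 0 only. Those that rose included Nefm, a neurofilament (1.94 ± 0.15 at day 3, adjusted p = 1.77e-06), and the transcription factor Neurod1 (1.07 ± 0.23 at day 0, adjusted p = 0.0250). Nefl and Isl1 were not called on any day, and Tubb3, Dcx, Elavl4 and Rbfox3 were never detected. Of 7 endocrine markers on the array, 2 to 3 were detected in knockout and 0 in control groups, with sums of 685 to 1448 in knockout and 7.77 to 82.7 in control. Those detected were Chga, Scg2 and Scg3, while Chgb, Pcsk1, Ins2 and Gcg were never detected. Scg3 and Chga, both of secretory granules, exceeded control at day 0 by at least 2.96-fold (adjusted p = 1.55e-09) and at least 4.56-fold (1.19e-06). The 3 endocrine markers tested passed the filter through knockout arrays only and so had to lean towards a rise. Neural progenitor markers had 2 to 4 of 8 detected in both genotypes, with sums of 465 to 1940 in knockout and 514 to 1609 in control, and Sox1, Neurog2 and Pax3 were never detected. Fabp7 of that list was lower in knockout at day 9 and Otx2 higher at day 0. Of 5 endoderm markers tested, 0, 2, 1 and 1 fell at days 0, 3, 6 and 9, and none was called higher. Of all genes, 0.773%, 2.85%, 0.32% and 2.43% fell. Sox17 was at least 4.02-fold lower (adjusted p = 2.54e-06) and Gata6 fell by 3.28 ± 0.37 (4.39e-05) at day 3, and Afp fell by 1.67 ± 0.25 at day 9 (6.06e-04). At day 6 Afp fell by 1.65 ± 0.25 (0.00128). Ttr was 1.33 ± 0.33 higher on that day (0.0569) and Sox17 1.04 ± 0.28 higher (0.0944), neither called, and the median of the 5 was 0.44. Endoderm sums were 94.4 to 23937 on knockout and 46.3 to 31518 on control arrays. They were lower in knockout at day 3 (465 and 239 against 2471 and 2328) and day 9 (23937 and 21162 against 31518 and 31321). At day 6 they were higher in knockout (16646 and 15590 against 10732 and 12410). Of 8 pluripotency markers, 0, 1, 2 and 3 rose at days 0, 3, 6 and 9 and none fell, with Nanog, Tdgf1 and Dppa5a higher at day 9. The shares of all genes that rose were 1.41%, 3.94%, 1.43% and 2.69%. Cardiac muscle sums were 80.1 to 3920 on knockout and 202 to 4954 on control arrays, and none of the 4 cardiac genes tested was called on any day. The 2 arrays of day 6 differed widely in both genotypes, with sums of 838 and 3184 in knockout and 4139 and 799 in control. The markers named here were picked after their values were seen. The part of these markers in the results was not tested.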

How the data were processed

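Biotin-labelled cRNA of total RNA was hybridised to 16 Illumina mouse arrays, per the labels' protocols. Per the file headers, the deposited table gave an intensity for each of 25697 probes and array and a detection p-value. The authors' second table of deposited intensity values, quantile normalized as judged from the values, served as an alternative. Scanner software and genome build: not given in the sources used here. Probe symbols came from the platform annotation, and all 87 member probes matched RefSeq by Entrez identifier with 0 symbols changed.

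Intensities were corrected and quantile normalized with neqc of limma 3.58.1 (R 4.3.3, statmod 1.5.0), with an offset of 16, so a fold change is on a log2(value + 16) scale and understates dim genes. Probes were kept at a detection p-value below 0.01 on both arrays of at least 1 group, and a gene took its brightest probe, giving 7505 genes. limma's lmFit and eBayes then estimated 8 group means from the 16 arrays (8 residual and 6.40 prior degrees of freedom). Adjusted p-values are Benjamini-Hochberg over 7505 genes, per comparison, for 14 comparisons. Where no probe of a gene was detected in a group, the fold is a lower bound from the lowest detected value. An adjusted p beside such a bound is that of the fitted difference, and the bound itself was not tested. The fit was tested on simulated data. Members with intensities given are mainly those called on at least 1 day and those of paralogue pairs. Genes outside the members came from fixed lists, and those named were picked after their values were seen. The members and lists were chosen with earlier results of these data known. Replicate numbers did not pair samples: across 28 pairs of groups the correlation of same-numbered deviations ran from -0.177 to 0.144. In all, 24 other settings were run. Precision is limited by 2 arrays per group.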

Additional observations from a re-analysis of the deposited data

Results flagged for a closer look

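The change from day 0 differed between the genotypes, by limma's test of the difference itself, for 7 results, all larger in knockout (knockout minus control, log2). To day 9 they were Syn1 with 1.89, Syp with 1.19 and Stx1a with 0.88. To day 6 it was Syp with 1.17, and to day 3 Snap47 with 1.53, Syt11 with 1.28 and Syt4 with 0.93. Only Syn1 kept its call in all 24 other settings. Syp to day 9 lost it without control day 9 replicate 1 (1.07, adjusted p = 0.0829), knockout day 0 replicate 1 (1.11, 0.0700) or knockout day 9 replicate 1 (1.12, 0.0646), and Stx1a without control day 9 replicate 2 (0.87, 0.0593), knockout day 0 replicate 1 (0.88, 0.0502), knockout day 0 replicate 2 (0.88, 0.0532) or knockout day 9 replicate 2 (0.85, 0.0556). Syp to day 6 was called in 13 of 24 settings, and lost without control day 0 replicate 2 or any day 6, knockout day 0 or knockout day 9 array (0.87 to 1.25, adjusted p 0.0514 to 0.151). Snap47 was called in 20 of 23 and lost without control day 3 replicate 1, knockout day 0 replicate 2 or knockout day 3 replicate 2 (1.34 to 1.48, adjusted p 0.0573 to 0.0759). Syt4 was called in 8 of 24 and lost without any knockout array or any control array of days 0 and 3 (0.77 to 1.10, adjusted p 0.0529 to 0.175). Syt11 was called in 8 of 24 and lost without 11 of the 16 arrays, each left out alone (0.97 to 1.36, adjusted p 0.0600 to 0.209), among them both day 9 arrays of each genotype. The sizes for Syt4 and Snap47 to day 3 and for Syn1 to day 9 draw on control arrays where the gene was not detected and depend on the background.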

How the results depend on the processing

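Each result was recomputed in 24 other settings, 16 of which leave out 1 array. Neuronal counts stayed within 1.5 times of 4, 6, 5 and 6 at days 0, 3, 6 and 9 in all of them, and Syt4, Syp and Stx1a kept their calls at every day. The ubiquitous count at day 3, 2 genes, was 1 without background correction, with the authors' second table and with detection on at least 8 arrays, and 0 to 2 when 1 array was left out. The average ubiquitous count, 1 gene, was 0 without background correction and with the authors' second table, and 0 to 2 when 1 array was left out; at day 6 the count of 0 reached 1. Differences in change called to day 3, 3 genes, were 1 with the authors' second table and with all probes fitted, and 0 to 3 without 1 array. To day 6, 1 gene, they were 0 without background correction and with the authors' second table, 2 with median centring and with an offset of 50, and 0 to 1 without 1 array. To day 9, 3 genes, they were 1 to 3 without 1 array. The cause was not tested. Cplx1 lost its calls at days 0, 6 and 9 without background correction (adjusted p 0.0961, 0.0891 and 0.0559), at day 6 with the authors' second table (0.0669) and at day 9 with median centring (0.0514). Sv2a at day 9 lost it with median centring (0.0512) and the authors' second table (0.0543), and Vamp3 at day 3 without background correction (0.0592) and with the authors' second table (0.0549). Syn1 at day 0 was called with an offset of 50 (adjusted p = 0.0432) and without control day 0 replicate 1 (1.18, 0.00659). The pairs kept their side of the threshold. With the replicate block, which the numbers do not justify since the samples share only a number, the Syt11 difference to day 3 had an adjusted p of 0.0553 with a value of 1.28. The slide as a block was not run, because no label or header used here names the slide. Dim genes near the detection limit are limited by signal over background, and folds against undetected groups are bounds.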
